A study of Drosophila melanogaster with 24 samples.

Results

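Head transcripts of a cwo5073 mutant strain and a wild-type strain were compared in daytime, at ZT6 and ZT10. Zeitgeber time (ZT) counts the hours after lights on. The comparison took the 4 mutant libraries of these times (cwo5073 mutant strain, 2 at ZT6 and 2 at ZT10) against the 4 wild-type libraries (w1118 strain, labelled as the control of the mutant, 2 at ZT6 and 2 at ZT10), 8 of the 24 libraries of the series. The remaining 16 libraries are the same 2 genotypes at ZT2, ZT14, ZT18 and ZT22. All flies were kept at 25 °C in cycles of 12 h light and 12 h dark for 3 days, and heads were taken on day 4; poly(A) RNA was sequenced from them. The labels' treatment text names collections at ZT2 and ZT14 only, while titles and design name all 6 times; the titles were followed. The sources used here give neither sex nor age nor the lesion of the cwo5073 allele. They do not say whether replicates were separate fly cultures, so p-values measure the spread between these libraries.

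The gene cwo (clockwork orange) encodes a basic helix-loop-helix repressor of the Orange family that binds E-box sequences. In the fly clock the activators CLK and CYC drive per, tim, vri, Pdp1 and cwo through E-boxes, PER and TIM feed back on CLK-CYC, and CWO acts on the same promoters. At ZT6 and ZT10 per, tim and vri transcripts are climbing towards their peak around dusk while Clk transcripts decline. CG31324 is the fly counterpart of CIPC, a protein that inhibits CLK-CYC.

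The 8 libraries held 11319605 to 19638611 counts. The median Spearman correlation of a library with the other 7 was 0.969 to 0.985. Long abundant transcripts were relatively high in the mutant libraries: the median log2 deviation of long genes minus that of short ones was 0.0151 to 0.404 in the mutant and -0.538 to 0.0273 in wild type, lowest in wild-type ZT10 replicate 1. Across genes, which are not independent, transcript length and fold change had a Spearman correlation of 0.376. The defining head cell markers were present in both genotypes. For the 5 neuronal markers summed levels were 4027 to 4773 CPM (counts scaled to the library total) in the mutant and 3845 to 5088 CPM in wild type, and for the 7 photoreceptor markers 52330 to 62650 CPM and 45870 to 56580 CPM. Gut, ovary and testis marker sums were 4.17 to 5.65, 2.09 to 2.46 and 468 to 549 CPM in the mutant, against 4.51 to 6.08, 1.06 to 2.73 and 363 to 505 CPM in wild type, with Jon65Aiii, Jon65Aiv, Jon25Bi, alphaTry, nos and Mst84Da at 0 in all 8 libraries. In whole heads, fewer cells of a type and less RNA per cell cannot be told apart.

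With time as a block, edgeR's quasi-likelihood test called 1267 of 10753 genes at a Benjamini-Hochberg adjusted p under 0.05, 11.8% of those tested. Of these, 637 were higher and 630 lower in the mutant, and 159 in each direction changed at least 2-fold (1.48% each of those tested). Most changes were small: the median absolute log2 fold change of the called genes was 0.63, and 402 of them were under 0.5. The 4 mutant and 4 wild-type libraries did not overlap in 1168 of the called genes and in 22.8% of all genes tested. With limma on log2 of the deposited gene FPKM plus 1, which changes both the values and the test, 370 were higher and 763 lower; with gene length offsets in edgeR 555 were higher and 586 lower. The count also leaned on single libraries. It was 351 without mutant ZT6 replicate 1, 401 without mutant ZT10 replicate 1, 815 without mutant ZT10 replicate 2, 361 without wild-type ZT6 replicate 2 and 523 without wild-type ZT10 replicate 2.

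The targeted gene, cwo, stood higher in mutant heads. Its levels were 288 and 246 CPM at ZT6 and 612 and 540 CPM at ZT10 in the mutant, against 78.1 and 75.6 CPM at ZT6 and 125 and 103 CPM at ZT10 in wild type. All 4 mutant libraries lay above all 4 wild-type libraries. The log2 fold change was 2.07 ± 0.14 (SE; adjusted p = 0.00019), 1.80 ± 0.15 at ZT6 and 2.34 ± 0.16 at ZT10, and the difference between the times, 0.55 ± 0.21, did not pass. The gene lies at chr3R:10388258-10400752 (dm6).

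Of the 19 core clock genes tested, 3 rose and none fell, against 5.92% higher and 5.86% lower among all genes; the list's median log2 fold change was 0.03, beside -0.01 for all genes. CG31324 had 105 and 87.4 CPM at ZT6 and 128 and 125 CPM at ZT10 in the mutant, and 61.8 and 62.1 CPM at ZT6 and 98.4 and 77.9 CPM at ZT10 in wild type. It was higher in the mutant at each time, with a log2 fold change of 0.58 ± 0.10 (adjusted p = 0.012), a call lost only in the fit without the time block. Clk, which encodes the activator, had 64.9 and 62.9 CPM at ZT6 and 21.6 and 27.3 CPM at ZT10 in the mutant, against 46.8 and 51.5 CPM at ZT6 and 13.2 and 18.0 CPM at ZT10 in wild type. Within each time its mutant values were the higher ones, and the log2 fold change was 0.51 ± 0.13 (adjusted p = 0.041). That call was near the threshold and was lost in 14 of 19 alternatives, including the removal of any 1 of the 8 libraries.

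**Figure D1:**
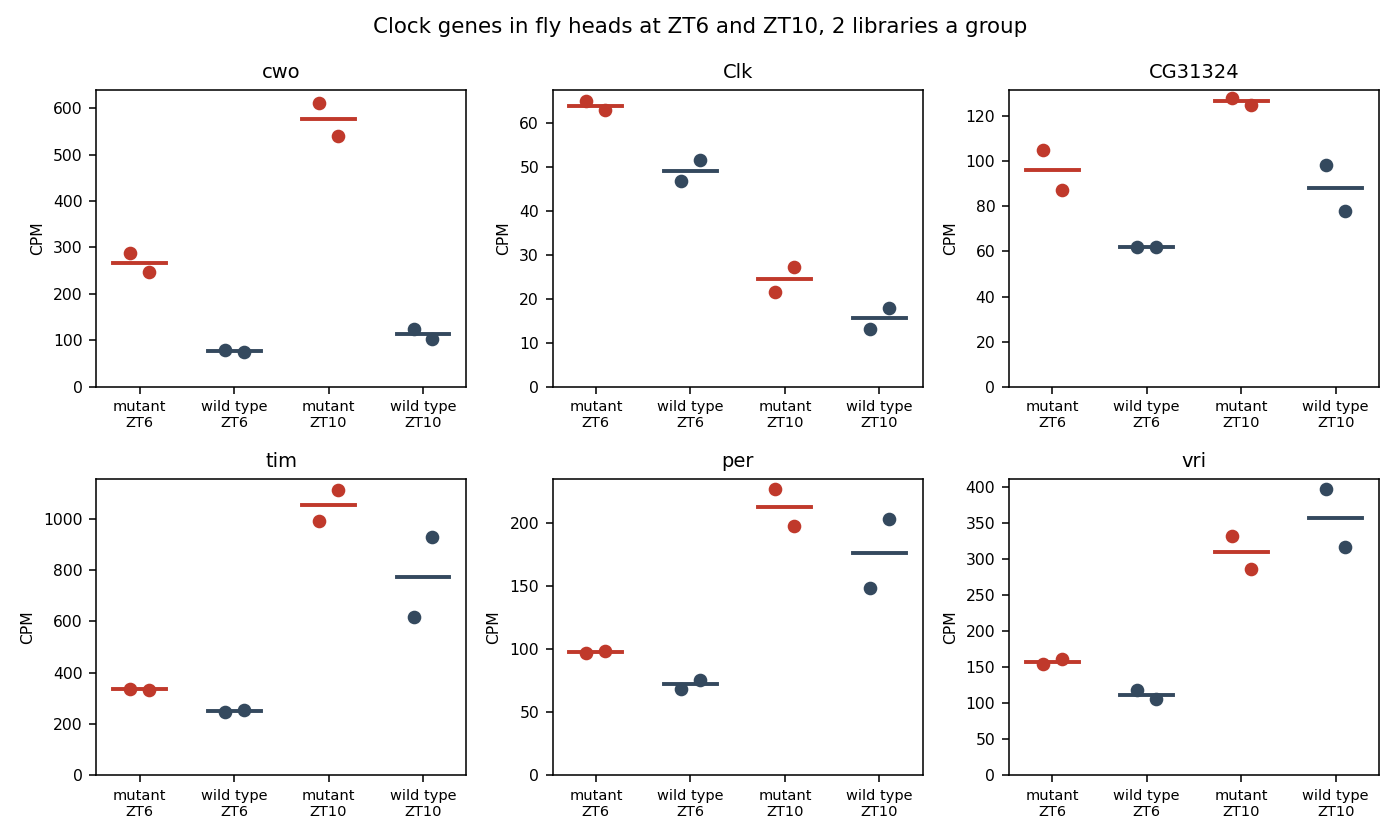
Levels of 6 clock genes in CPM in each library (points) with the group mean (bar), mutant in red and wild type in dark grey, at ZT6 and ZT10. For cwo every mutant library lies above every wild-type library, for Clk and CG31324 this holds within each time, and for vri the order of the group means differs between the times.

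Of the other genes that CLK-CYC drives, tim, per, vri and Pdp1 did not pass. tim had 336 and 333 CPM at ZT6 and 993 and 1114 CPM at ZT10 in the mutant, and 247 and 253 CPM at ZT6 and 619 and 928 CPM at ZT10 in wild type. The mutant values were higher within each time, but the log2 fold change of 0.43 ± 0.13 had an adjusted p of 0.062. Both tim and per passed with DESeq2 and without wild-type ZT10 replicate 2, the library without which 4 core clock genes rose. For per, which overlaps dyw on the opposite strand, the log2 fold change was 0.35 ± 0.11 (adjusted p = 0.076), and the groups overlapped at ZT10. vri was 0.50 ± 0.15 at ZT6 and -0.21 ± 0.15 at ZT10, neither of which passed, and its difference between the times, -0.71 ± 0.22, did not pass either. The partner of Clk, cyc, and the activator Pdp1 had log2 fold changes of -0.01 ± 0.08 and -0.02 ± 0.15, and the photoreceptor gene cry 0.10 ± 0.08. Among the kinases and phosphatases that act on PER and TIM, CkIIalpha, the catalytic subunit of casein kinase 2, lay lower in all 4 mutant libraries with a log2 fold change of -0.45 ± 0.13 (adjusted p = 0.057; it passed with DESeq2 and with limma on FPKM); dco, sgg, CkIIbeta, nmo, mts, tws and wdb had -0.30 to 0.17, and slmb and jet, which act in the degradation of PER and TIM, 0.03 and -0.06.

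The rise or decline between the times was tested within each genotype. In the mutant, 4 genes passed from ZT6 to ZT10 (Aats-asp, CG17386, CG32857 and CG33502; 0.0372% of those tested); in wild type, 31 passed (0.288%), these 4 among them. Among the wild-type genes were 4 of the clock: Clk with a step of -1.65 ± 0.18, per with 1.29 ± 0.17, tim with 1.63 ± 0.20 and vri with 1.68 ± 0.16 in log2 units. The mutant steps were -1.39 ± 0.18 for Clk, 1.13 ± 0.17 for per, 1.66 ± 0.20 for tim and 0.97 ± 0.15 for vri, none of which passed (adjusted p = 0.074 to 0.22). The tests of the difference between these steps did not pass for any of the 4 genes, so the steps are not shown to differ between the genotypes. The mutant count was 9 without mutant ZT6 replicate 1, 11 without mutant ZT10 replicate 1 and 7 without mutant ZT10 replicate 2. The wild-type count was 13 without wild-type ZT6 replicate 1, 15 without wild-type ZT6 replicate 2 and 58 without wild-type ZT10 replicate 2.

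Head genes known as clock outputs changed in both directions. Of 23 tested, 7 rose and 3 fell, 43.5% called against 11.8% of all genes. The 3 highest were CG11891 with a log2 fold change of 1.26 ± 0.10 (adjusted p = 0.00043), the glycosyltransferase gene Ugt35b with 1.21 ± 0.14 (adjusted p = 0.0022) and to (takeout), a feeding and courtship gene, with 0.87 ± 0.14 (adjusted p = 0.0093). The list's sugar-responsive glucosidase gene tobi had 0.693, 0.467, 0.976 and 0.862 CPM in the mutant and 3.43, 2.18, 3.23 and 3.13 CPM in wild type, a log2 fold change of -2.01 ± 0.25 (adjusted p = 0.0034). CG10553 and CG14275 also fell, by 1.18 and 0.80 on the log2 scale. Without wild-type ZT6 replicate 2, 4 of the list rose. CG11891 overlaps CG11889 on the same strand, so reads may have been divided between them.

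The widest changes were ranked among genes that passed, had an average log2 CPM of at least 3 and did not overlap between the genotypes. CG8147, which encodes a predicted alkaline phosphatase, had 543 and 538 CPM at ZT6 and 784 and 619 CPM at ZT10 in the mutant, against 32.2 and 19.7 CPM at ZT6 and 15.3 and 22.7 CPM at ZT10 in wild type (log2 fold change 4.78 ± 0.27, adjusted p = 7.5e-05). phr, the photolyase gene of DNA photorepair, had 24.8, 31.4, 33.3 and 28.6 CPM in the mutant and 3.83, 3.80, 3.50 and 3.50 CPM in wild type (3.01 ± 0.12, adjusted p = 1.9e-05). Tequila, the fly neurotrypsin gene, had 235, 178, 305 and 169 CPM in the mutant and 47.6, 31.0, 32.9 and 34.0 CPM in wild type (2.61 ± 0.23, adjusted p = 0.00079). None of these groups overlapped, as the ranking required. CG4757, CG11425 and CG3348 rose by 3.42 ± 0.33, 3.38 ± 0.22 and 2.70 ± 0.30 on the log2 scale. CG34166 and Pif1A had log2 fold changes of 3.68 ± 0.94 and 2.87 ± 0.51; the call of CG34166 was lost without mutant ZT6 replicate 1 or any 1 of the 4 wild-type libraries, and that of Pif1A, whose model overlaps Pif1B and Ir85a, without mutant ZT10 replicate 1 or wild-type ZT6 replicate 2.

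At the other end stood Cyp6a17, a P450 gene with a role in temperature preference. It had 0, 0.992, 0 and 0 CPM in the mutant and 79.4, 76.2, 90.6 and 72.4 CPM in wild type (log2 fold change -8.30 ± 0.65, adjusted p = 0.00043). With so few mutant counts the size of this fold depends on the prior count: over the alternatives it was -13.32 to -3.50, the lowest without mutant ZT6 replicate 2. Its close copy Cyp6a23, named for this reason, had 25.5, 21.6, 33.2 and 16.9 CPM in the mutant and 14.9, 16.8, 16.2 and 14.4 CPM in wild type and did not pass (0.64 ± 0.19, adjusted p = 0.065); how reads of the pair were divided is uncertain. CG12947 and CG10936 fell by 4.66 and 4.54 on the log2 scale. CG6084, an aldo-keto reductase gene, fell by 2.96. MtnA encodes a metallothionein that binds copper and other metals. In the mutant it had 145 and 120 CPM at ZT6 and 134 and 155 CPM at ZT10. The wild-type values were 625 and 818 CPM at ZT6 and 920 and 605 CPM at ZT10 (-2.42 ± 0.16, adjusted p = 0.00019). MtnA was the only one of 4 metallothionein genes tested to pass. CG5391, CG9150, CG11893, CG5653 and the non-coding CR45109 had log2 fold changes of -1.90 to -2.13. With se and Arc1, given below, they completed the 12 lowest under the level and overlap limits of this ranking. Of the 24 genes at both ends, 19 passed in every alternative tried; the exceptions were CG34166, Pif1A, AttC, Arc1 and CR45109, the last of which did not pass in the fit of all 24 libraries.

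**Figure D2:**
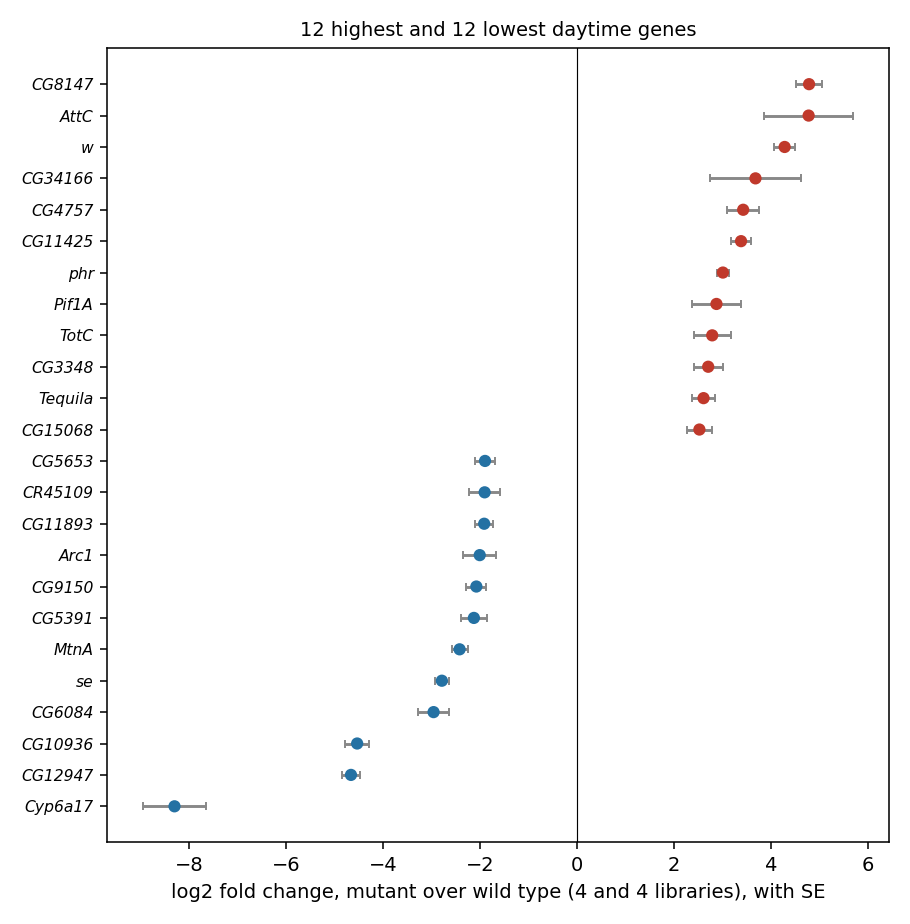
Log2 fold change (mutant over wild type, 4 and 4 libraries) with SE of the 12 highest and 12 lowest daytime genes that passed, had an average log2 CPM of at least 3 and did not overlap between the genotypes. CG8147 and AttC lead at 4.78 and 4.77, and Cyp6a17 stands lowest at -8.30.

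Eye pigment genes were among the widest changes. w (white) encodes the transporter that brings pigment precursors into pigment granules, and w1118, the wild-type strain here, carries a mutant w allele. It had 154 and 143 CPM at ZT6 and 266 and 242 CPM at ZT10 in the mutant, against 9.24 and 11.7 CPM at ZT6 and 7.80 and 10.9 CPM at ZT10 in wild type (4.28 ± 0.22, adjusted p = 6.9e-05). The strains thus also differed in their w level, and effects of w and of cwo cannot be told apart in these libraries. In the pteridine branch, which makes the red drosopterins, 3 of 12 genes fell and 2 rose, w being one of them. In this list 41.7% were called, against 11.8% of all genes. Pu, the GTP cyclohydrolase gene at the head of the branch, had 194, 236, 225 and 278 CPM in the mutant and 657, 755, 954 and 806 CPM in wild type (-1.76 ± 0.12, adjusted p = 0.00019). pr, the next enzyme, fell by 1.10 ± 0.14 on the log2 scale, and se (sepia), which acts late in drosopterin synthesis, had 31.1, 35.5, 28 and 38.9 CPM in the mutant and 190, 231, 266 and 241 CPM in wild type (-2.79 ± 0.14, adjusted p = 6.9e-05). se overlaps GstO2 on the opposite strand. The xanthine dehydrogenase gene ry rose by 0.82 ± 0.18. In the ommochrome list of 14 tested, v, the tryptophan oxygenase gene of the brown pigments, rose by 1.11 ± 0.20 beside w. That is 14.3% called, near the 11.8% of all genes. The ry call was lost without mutant ZT6 replicate 1, wild-type ZT6 replicate 2 or either wild-type ZT10 library, and the v call without mutant ZT6 replicate 1 or wild-type ZT6 replicate 2. Of the 4 lens and pigment cell genes tested, w rose and the lens protein gene Cpr66D fell, by 0.72 ± 0.10.

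None of 13 opsin and chromophore genes passed (median log2 fold change -0.12), while 5 of 25 phototransduction genes rose and 1 fell. The risen ones act at the light-gated channel and its scaffold or in shut-off. inaF-B, which encodes a subunit of the TRP channel, had 1793, 1836, 1812 and 2229 CPM in the mutant. In wild type it had 1047, 1146, 800 and 958 CPM (0.96 ± 0.14, adjusted p = 0.0059). It overlaps inaF-A, inaF-C and inaF-D on the same strand, so reads may have been divided between them. The channel gene trp rose by 0.75 ± 0.15, the myosin kinase gene ninaC by 0.62 ± 0.14, the scaffold gene inaD by 0.46 ± 0.09 and the arrestin gene Arr2 by 0.36 ± 0.09. Gprk1, a G protein-coupled receptor kinase gene, fell by 0.60 ± 0.10. The ninaC call was lost in 8 of 19 alternatives, gene length offsets and the fit of all 24 libraries among them, and the trp call in 4. With gene length offsets 4 phototransduction genes rose and 2 fell. The list's median log2 fold change was -0.11 with these offsets, beside 0.07 without them. The risen count was 1 without mutant ZT6 replicate 1, mutant ZT10 replicate 1 or wild-type ZT6 replicate 2, 2 without wild-type ZT10 replicate 2 and 3 without mutant ZT10 replicate 2. Among 22 transmitter genes, Hdc, the histidine decarboxylase that makes the photoreceptor transmitter histamine, was the only one to pass; with gene length offsets 3 members fell, and without wild-type ZT6 replicate 1, 2 fell. Hdc had 130, 141, 128 and 137 CPM in the mutant and 56.8, 46.9, 39.5 and 58.0 CPM in wild type (1.42 ± 0.13, adjusted p = 0.00079). Its receptors ort and HisCl1 did not pass.

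Antimicrobial peptide genes are switched on by the Toll and Imd pathways. Of 30 tested, 12 rose in the mutant and none fell, 40.0% called against 11.8% of all genes, with a median log2 fold change of 1.56. AttC, an attacin gene, had 45.1, 38.8, 83.8 and 2.65 CPM in the mutant and 1.10, 1.06, 2.24 and 2.03 CPM in wild type (4.77 ± 0.92, adjusted p = 0.019); mutant ZT10 replicate 2 lay barely above the wild-type values. Def, a defensin gene, had 5.65, 2.28, 3.90 and 2.89 CPM in the mutant and 0.116, 0.125, 0 and 0 CPM in wild type. CG15068, of the Bomanin family, had 41.7, 35.5, 61.1 and 48.3 CPM in the mutant and 4.59, 4.98, 17.3 and 8.91 CPM in wild type (2.52 ± 0.26, adjusted p = 0.0015). The remaining risen members were IM18, Drsl4, IM2, CG16836, CG15067, IM1, IM3, IM14 and Drsl5, with log2 fold changes of 0.84 to 3.62. None of 28 immune recognition and signalling genes passed (median 0.15), while 5 rose without mutant ZT10 replicate 2. Of 4 stress-induced Turandot genes tested, TotC rose by 2.79 ± 0.38 and TotA by 1.66 ± 0.37.

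The immune counts depended on single libraries. The number of risen antimicrobial peptide genes was 5 without mutant ZT6 replicate 1, 5 without mutant ZT10 replicate 1, 6 without wild-type ZT6 replicate 2 and 7 without wild-type ZT10 replicate 2, but 20 without mutant ZT10 replicate 2. The AttC call was lost in the first 4 of these cases and that of TotA in the same 4 and without mutant ZT6 replicate 2. Markers of the fat body, the main source of these peptides, varied in the same libraries. The sum of 6 fat body markers was 10660 to 52750 CPM in the mutant and 5057 to 12900 CPM in wild type, so the groups overlapped. All 6 had a log2 fold change above 0 (median 1.69). They came from a list that includes the yolk protein genes Yp1, Yp2 and Yp3. The sums of the 13 sex-biased genes were similar, 11700 to 53540 CPM in the mutant and 6672 to 14090 CPM in wild type. Fat body content and sex bias were thus not separated by these markers. Its storage protein gene Lsp2 had 36.6, 33.5, 412 and 4.87 CPM in the mutant and 1.57, 0.997, 14.7 and 5.40 CPM in wild type; its call (4.53 ± 1.12, adjusted p = 0.039) was lost without any 1 library other than mutant ZT10 replicate 2. Of 27 fat body genes, 4 rose (Lsp2, Apoltp, Mal-A1 and Ilp6) and 1 fell (tobi), 18.5% called against 11.8% of all genes. The risen count was 8 without mutant ZT10 replicate 2 and 3 without mutant ZT10 replicate 1. It was 2 or lower without any 1 of the other 6 libraries. Of the 6 fat body markers 1 rose, and 4 rose without mutant ZT10 replicate 2. Of 5 blood cell markers, whose sums were 205 to 448 CPM in the mutant and 169 to 218 CPM in wild type, Hml rose by 1.71 ± 0.44; no marker of the list rose with gene length offsets or without mutant ZT6 replicate 1, mutant ZT10 replicate 1 or any 1 of the wild-type libraries, and 2 rose without mutant ZT6 replicate 2. Of 13 sex-biased genes 3 rose (to, sxe2 and dsx) and 1 fell, 30.8% called against 11.8% of all genes. The fallen one was the male-specific roX2, by 0.77 ± 0.17. It had 21.0, 32.7, 19.2 and 27.3 CPM in the mutant and 37.7, 47.7, 41.5 and 44.2 CPM in wild type. The list mixes female-biased and male-biased genes, so roX2 alone does not give the sex of the heads. The risen count was 5 without mutant ZT10 replicate 2, and the dsx call was lost in 12 of 19 alternatives, gene length offsets and the removal of any 1 of 6 libraries among them. The roX2 call was lost without mutant ZT6 replicate 1, mutant ZT10 replicate 1, wild-type ZT6 replicate 2 or either wild-type ZT10 library. The part of cell content and of the sex of the heads in the immune result was not tested.

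Neuropeptides are the signalling peptides of neurons and endocrine cells. Of 34 genes tested, 10 fell in the mutant and 1 rose, 32.35% called against 11.8% of all genes. In this list 19 lay lower in all 4 mutant libraries than in any wild-type library, against 11.5% of all genes. Ilp3, an insulin-like peptide of the brain's insulin-producing cells, had 5.28 and 8.05 CPM at ZT6 and 5.31 and 8.81 CPM at ZT10 in the mutant, against 16.6 and 16.3 CPM at ZT6 and 29.7 and 25.4 CPM at ZT10 in wild type (-1.63 ± 0.22, adjusted p = 0.0045). AstC, an allatostatin gene that acts in the clock circuit, had 132, 133, 118 and 137 CPM in the mutant and 175, 222, 233 and 202 CPM in wild type (-0.67 ± 0.11, adjusted p = 0.0096). Dsk (drosulfakinin) fell by 0.66 ± 0.14, and NPF, Capa, Trissin, Mip, Ms, ITP and Proc by 0.34 to 0.58. CG13936 was the member that rose, by 1.16 ± 0.19. Pdf, the main output peptide of the clock neurons, had 95.5, 101, 100 and 109 CPM in the mutant and 75.4, 89.5, 137 and 107 CPM in wild type and did not pass (0.02 ± 0.13). The fallen count was 3 without mutant ZT6 replicate 1, 2 without mutant ZT10 replicate 1, 4 without mutant ZT10 replicate 2, 3 without wild-type ZT6 replicate 2 and 4 without wild-type ZT10 replicate 2. With offsets for gene length it was 6 and the risen count 3, and the list's median log2 fold change was -0.10, beside -0.29 without them. These genes are short (median 945 nt, against 1977 nt for all genes tested).

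In insulin signalling, Ilp6, a peptide of the fat body, rose by 0.54 ± 0.11, while Ilp3 fell as given above. Of 15 monoamine genes, Tdc1, a tyrosine decarboxylase, rose by 0.76 ± 0.14 and Pu, which also serves amine synthesis, fell. That is 13.3% called, near the 11.8% of all genes. The Tdc1 call was lost in the fit of all 24 libraries and without mutant ZT6 replicate 1 or mutant ZT10 replicate 1. Of 29 presynaptic and excitability genes only the potassium channel gene Irk1 passed, by 0.48 ± 0.10, a call lost without mutant ZT6 replicate 1, mutant ZT10 replicate 1, wild-type ZT10 replicate 2 or either wild-type ZT6 library. Of 11 activity-regulated genes 2 rose and 2 fell, 36.4% called against 11.8% of all genes. Arc1, which encodes a capsid-like protein that carries its RNA across synapses, had 375 and 233 CPM at ZT6 and 269 and 182 CPM at ZT10 in the mutant, against 743 and 699 CPM at ZT6 and 1658 and 1428 CPM at ZT10 in wild type (-2.01 ± 0.34, adjusted p = 0.012); the call was lost without mutant ZT10 replicate 1. Its relative Arc2 fell by 1.04 ± 0.25, while Hr38 and CrebB, which encode transcription factors, rose by 0.84 ± 0.19 and 0.53 ± 0.11; these 3 calls were each lost without mutant ZT10 replicate 1, wild-type ZT6 replicate 2 or wild-type ZT10 replicate 2, among other libraries. With gene length offsets the Hr38 and CrebB calls were lost, and none of the list rose. Of 21 glial genes 3 rose, 14.3% called and near the 11.8% of all genes. They were axo, by 1.08 ± 0.12, bnb, by 0.63 ± 0.10, and the glutamine synthetase gene Gs2, by 0.44 ± 0.08. Among the 7 relatives of cwo that were tested, cwo included, h (hairy) rose as well, with 77.5, 85.0, 88.0 and 86.2 CPM in the mutant and 48.5, 50.8, 65.5 and 50.9 CPM in wild type (0.65 ± 0.09, adjusted p = 0.0061).

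Head muscle was followed through genes of the sarcomere and its regulation. Of 28 tested, 10 fell in the mutant and none rose, 35.7% called against 11.8% of all genes. The median log2 fold change was -0.32, and 6 members had a log2 fold change above 0. TpnC41C, a troponin C gene, had 9.86, 10.1, 8.85 and 7.70 CPM in the mutant and 14.9, 19.8, 30.8 and 19.6 CPM in wild type (-1.20 ± 0.21, adjusted p = 0.015). Mf (myofilin) fell by 0.81 ± 0.13 and the myosin light chain gene Mlc1 by 0.73 ± 0.15, and Mlc2, wupA, Zasp66, Mlc-c, up, Tm2 and tn by 0.32 to 0.67. The heavy chain gene Mhc did not pass (0.07 ± 0.12). The summed muscle markers were 4386 to 4982 CPM in the mutant and 5342 to 6043 CPM in wild type, with no overlap when scaled to plain library totals. The fallen count was 4 without mutant ZT6 replicate 1, 3 without mutant ZT10 replicate 1, 4 without mutant ZT10 replicate 2 and 3 without wild-type ZT6 replicate 2. Of 42 cuticle genes 9 fell and 1 rose, 23.8% called against 11.8% of all genes. The 3 lowest were Pcp, Cpr11B and Cpr62Bb, which fell by 1.53 ± 0.23, 1.40 ± 0.21 and 1.39 ± 0.14. Cpr47Ee rose by 0.74 ± 0.16. The fallen cuticle count was 5 without mutant ZT6 replicate 1. The Cpr47Ee call was lost in 7 of 19 alternatives, most of them left-out libraries.

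Detoxification families held changes in both directions. Of 74 cytochrome P450 genes 7 rose and 7 fell, 18.9% called against 11.8% of all genes. The risen count was 3 without mutant ZT6 replicate 1, mutant ZT10 replicate 1, wild-type ZT6 replicate 2 or wild-type ZT10 replicate 2. It was 4 without wild-type ZT6 replicate 1, and 4 fell without mutant ZT10 replicate 1. Cyp6a2 had 13.3, 14.5, 14.2 and 11.8 CPM in the mutant and 4.88, 4.24, 2.69 and 3.07 CPM in wild type (1.87 ± 0.15, adjusted p = 0.00054), and Cyp317a1 24.2, 29.6, 19.3 and 34.1 CPM in the mutant and 72.1, 71.9, 66.4 and 63.5 CPM in wild type (-1.35 ± 0.16, adjusted p = 0.003). In the fit of all 24 libraries, where its daytime call was lost, Cyp317a1 had log2 fold changes of 0.39, 0.64, 0.23 and 0.13 at ZT2, ZT14, ZT18 and ZT22, each with an SE of 0.51. Of 9 glycosyltransferase genes 3 fell and 2 rose, 55.6% called against 11.8% of all genes. Their risen count was 1 without any 1 library other than wild-type ZT10 replicate 1. The call of the risen Ugt86De was lost in 10 of 17 alternatives. Among the fallen, Ugt86Dd had 9.06, 7.76, 12.6 and 7.82 CPM in the mutant, against 27.8, 20.1, 37.7 and 24.9 CPM in wild type, and Ugt86Di had 0.213, 0.292, 0 and 0 CPM in the mutant, against 4.94, 4.30, 4.39 and 3.19 CPM in wild type. Of 31 glutathione S-transferase genes 5 fell and none rose, 16.1% called against 11.8% of all genes. Among the fallen were GstE14, by 0.98 ± 0.12, and GstD9, by 0.98 ± 0.16. Fallen members of that family numbered 2 with gene length offsets, without mutant ZT6 replicate 1 or without wild-type ZT6 replicate 2, and 3 without either mutant ZT10 library. Of 16 oxidative stress genes 2 fell (CG6084 and Sod2) and 1 rose (Gclm), 18.75% called against 11.8% of all genes. The fallen count was 1 without any 1 library other than mutant ZT6 replicate 2, and the Sod2 call was lost in 11 and the Gclm call in 8 of 19 alternatives. Of 21 heat shock genes 3 fell and none rose, 14.3% called against 11.8% of all genes. Among them was Hsp27, which fell by 2.02 ± 0.25 at a low level, 0.854 to 1.85 CPM in the mutant and 5.20 to 6.26 CPM in wild type. The list's summed level was not lower in the mutant, with 4125 to 4564 CPM against 3488 to 4126 CPM in wild type. Of the heat shock genes 1 fell without either first mutant replicate, wild-type ZT6 replicate 1 or wild-type ZT10 replicate 2.

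Among the chemosensory genes, 5 of 31 odorant binding proteins fell, 16.1% called against 11.8% of all genes. Obp56h fell by 1.37 ± 0.15 and Obp19b by 0.99 ± 0.09. Of 68 receptors 5 rose and 3 fell, 11.8% of them and thus the share of all genes. These receptor counts fell to at most 3 and 2 without any 1 library, and without mutant ZT6 replicate 1 no receptor passed. Of the binding proteins 2 fell without either first mutant replicate or wild-type ZT6 replicate 2 and 3 without mutant ZT10 replicate 2. None of 82 cytosolic ribosomal protein genes passed, although 11 rose with gene length offsets. Of 73 mitochondrial ribosomal protein genes 5 fell, 6.85% of them and near the 5.86% of all genes, 1 with these offsets, and their median was -0.21; 8 fell without mutant ZT6 replicate 2 and 2 or fewer without any other library. Of 36 proteasome genes Rpn1 rose by 0.37 ± 0.09, a call lost in 10 of 19 alternatives, and none of 16 oxidative phosphorylation genes passed.

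**Figure D3:**
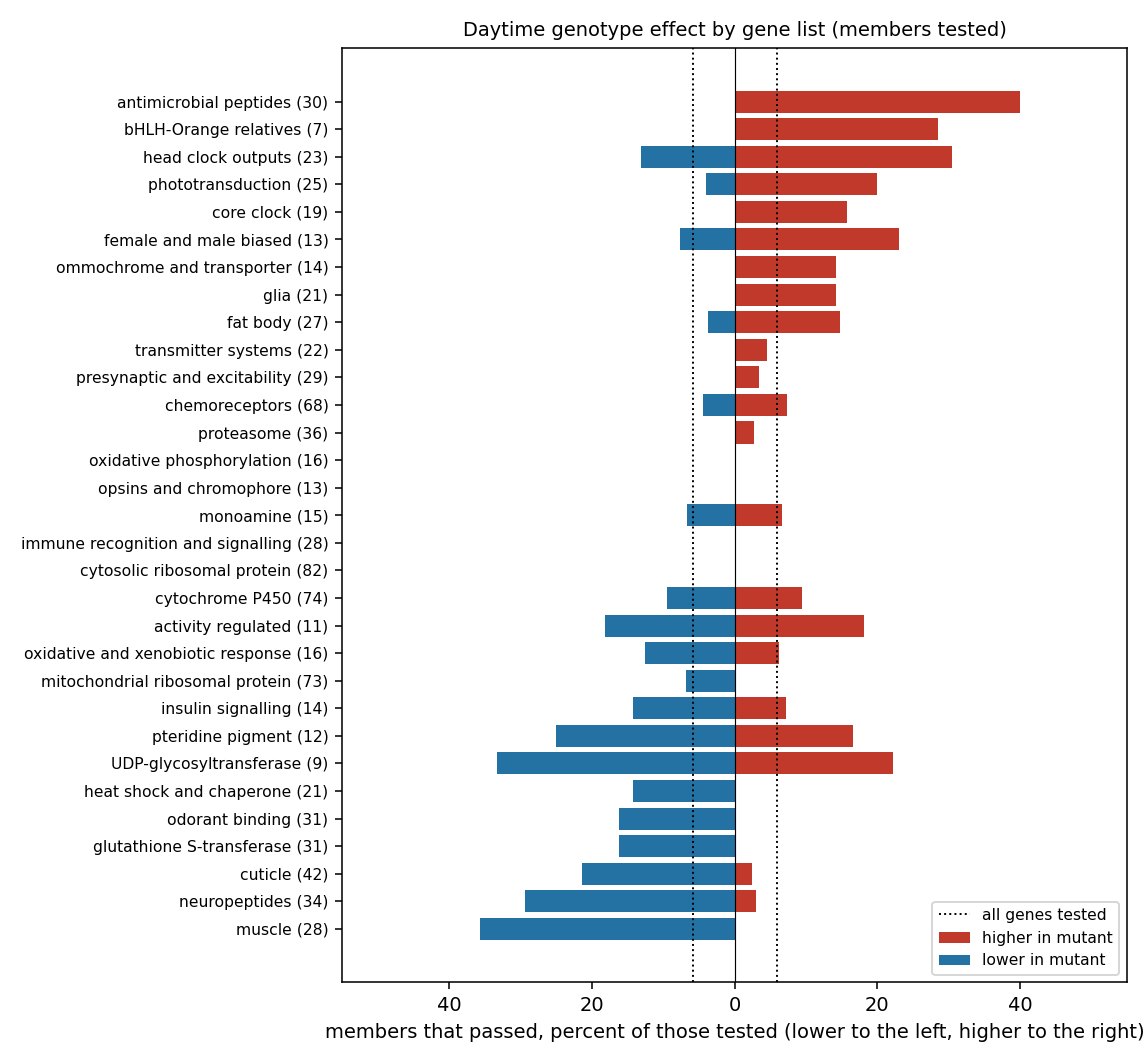
Share of each gene list's tested members (number in brackets) that passed and were higher (red, to the right) or lower (blue, to the left) in the mutant, in percent, for lists with at least 7 members tested. Dotted lines mark all genes tested, 5.92% higher and 5.86% lower; antimicrobial peptides stand at the top with 12 of 30 higher and muscle at the bottom with 10 of 28 lower.

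At ZT6 alone 119 genes passed (1.11%), 58 higher and 61 lower (0.539% and 0.567%), and at ZT10 alone 309 (2.87%), 154 higher and 155 lower (1.43% and 1.44%); 99 genes passed at both times, with the same sign. Of the 1267 genes called over both times, 1264 had the same sign at ZT6 and ZT10. That call used the same values, so it favours genes with the same sign, and this agreement is no separate result. The effect of genotype differed between the times by the interaction test in 5 genes (0.0465%): Tim9b, stnB and CG43778 upward (0.0279%) and Vps37B and CG44194 downward (0.0186%). The ZT6 count was 30 without mutant replicate 1, 50 without mutant replicate 2, 34 without wild-type replicate 1 and 21 without wild-type replicate 2. The ZT10 count was 61 without mutant replicate 1, 60 without wild-type replicate 1 and 1210 without wild-type replicate 2. The interaction count was 11 without mutant ZT6 replicate 1, 14 without mutant ZT10 replicate 1, 12 without wild-type ZT10 replicate 1 and 18 without wild-type ZT10 replicate 2.

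**Figure D4:**
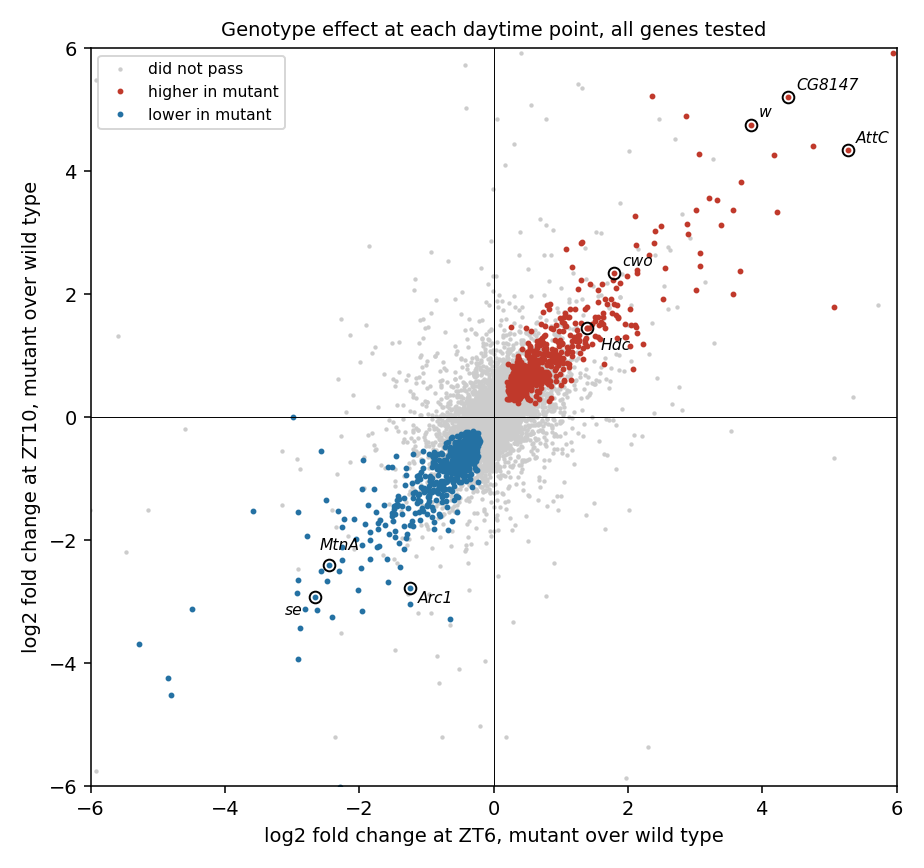
Log2 fold change of each gene tested (mutant over wild type) at ZT6 on the x axis and at ZT10 on the y axis; red and blue points passed in the fit over both times, which used the same values. Each labelled gene has the same sign at both times. Arc1, at -1.24 and -2.78, lies farthest from the diagonal among them, but its difference between the times, -1.53 ± 0.38, did not pass. Beyond the axes, which end at 6 log2 units, lie 81 genes.

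No gene's daytime effect was shown to differ from that at other times. Of 11095 genes tested by edgeR in the fit of all 24 libraries, 0 passed for the daytime effect minus that of the other 4 times, 0 against ZT14 and ZT18 and 0 against ZT22 and ZT2, with 255, 285 and 801 at an unadjusted p under 0.05. Without wild-type ZT2 replicate 1 the counts were 66 against the other 4 times and 2569 against ZT22 and ZT2; with any other library left out they were 0 to 6. In that fit cwo was higher in the mutant by 2.25 ± 0.18 at ZT2, 2.42 ± 0.18 at ZT14, 2.96 ± 0.18 at ZT18 and 2.86 ± 0.18 at ZT22, beside the daytime values above. For tim the values were 1.39 ± 0.25, -0.18 ± 0.25, -0.15 ± 0.25 and 0.84 ± 0.25 at the same times, and its daytime effect minus that at ZT22 and ZT2 was -0.67 ± 0.25 (adjusted p = 0.6). For vri they were 1.43 ± 0.39, -0.26 ± 0.38, 0.04 ± 0.38 and 1.43 ± 0.39, with a difference from ZT22 and ZT2 of -1.28 ± 0.38 (adjusted p = 0.6). w, se and MtnA kept 1 sign at all 4 other times, with 3.33 to 5.88, -3.53 to -2.14 and -3.77 to -1.69.

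Transcripts were tested with limma on log2(FPKM + 1), a scale that understates changes of low transcripts. Of 16855, 476 passed (2.82%), 212 higher and 264 lower. The 5092 nt transcript of cwo had 50.9 and 43.6 FPKM at ZT6 and 99.9 and 93.4 FPKM at ZT10 in the mutant, against 5.30 and 9.36 FPKM at ZT6 and 4.81 and 7.56 FPKM at ZT10 in wild type (3.18 ± 0.31, adjusted p = 0.0047). Its 4632 nt transcript was lower, with 0.568, 0.876, 3.08 and 1.52 FPKM in the mutant and 10.9, 5.29, 12.2 and 13.3 FPKM in wild type (-2.22 ± 0.27, adjusted p = 0.01). The 4508 nt transcript did not pass, so of the 3 transcripts 1 rose and 1 fell.

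In 40 genes at least 1 transcript rose and another fell; the widest gaps were in Unc-89, Tequila, Gpb5, Wnk and ps. Wnk, a kinase gene of ion balance, had 12.9, 10.9, 10.0 and 11.2 FPKM of an 8089 nt transcript in the mutant and 0.398, 0.402, 0 and 0.0750 FPKM in wild type, and 0.0194, 0, 0 and 0.0505 FPKM of an 8093 nt transcript in the mutant and 14.8, 13.4, 7.99 and 11.5 FPKM in wild type. Unc-89, the obscurin gene of the muscle sarcomere, had 12.0 to 15.5 FPKM of a 12244 nt transcript in the mutant, against 0 to 0.0595 FPKM in wild type, and 0 to 0.0747 FPKM of a 13189 nt transcript in the mutant, against 6.92 to 13.2 FPKM in wild type. Gpb5, a glycoprotein hormone subunit gene, had 0.594 to 1.56 FPKM of its 734 nt transcript in the mutant, against 17.5 to 33.8 FPKM in wild type. Its 697 nt transcript rose, with 13.6 to 19.6 FPKM in the mutant and 0 to 3.94 FPKM in wild type. A 10086 nt transcript of ps (pasilla), which encodes a splicing factor, was listed at 0 FPKM in all 4 mutant libraries and had 13.1 to 19.4 FPKM in wild type. A 10080 nt transcript of ps rose, with 5.57 to 10.5 FPKM in the mutant and 1.45 to 2.88 FPKM in wild type. Transcripts of 1 gene can share reads, which the submitters' software divided between them. How many reads they shared, and the part of that division in these values, was not tested. The transcript count was 194 without mutant ZT6 replicate 1, 222 and 239 without mutant ZT10 replicates 1 and 2, 316 without wild-type ZT6 replicate 2, and 293 and 243 without wild-type ZT10 replicates 1 and 2.

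**Figure D5:**
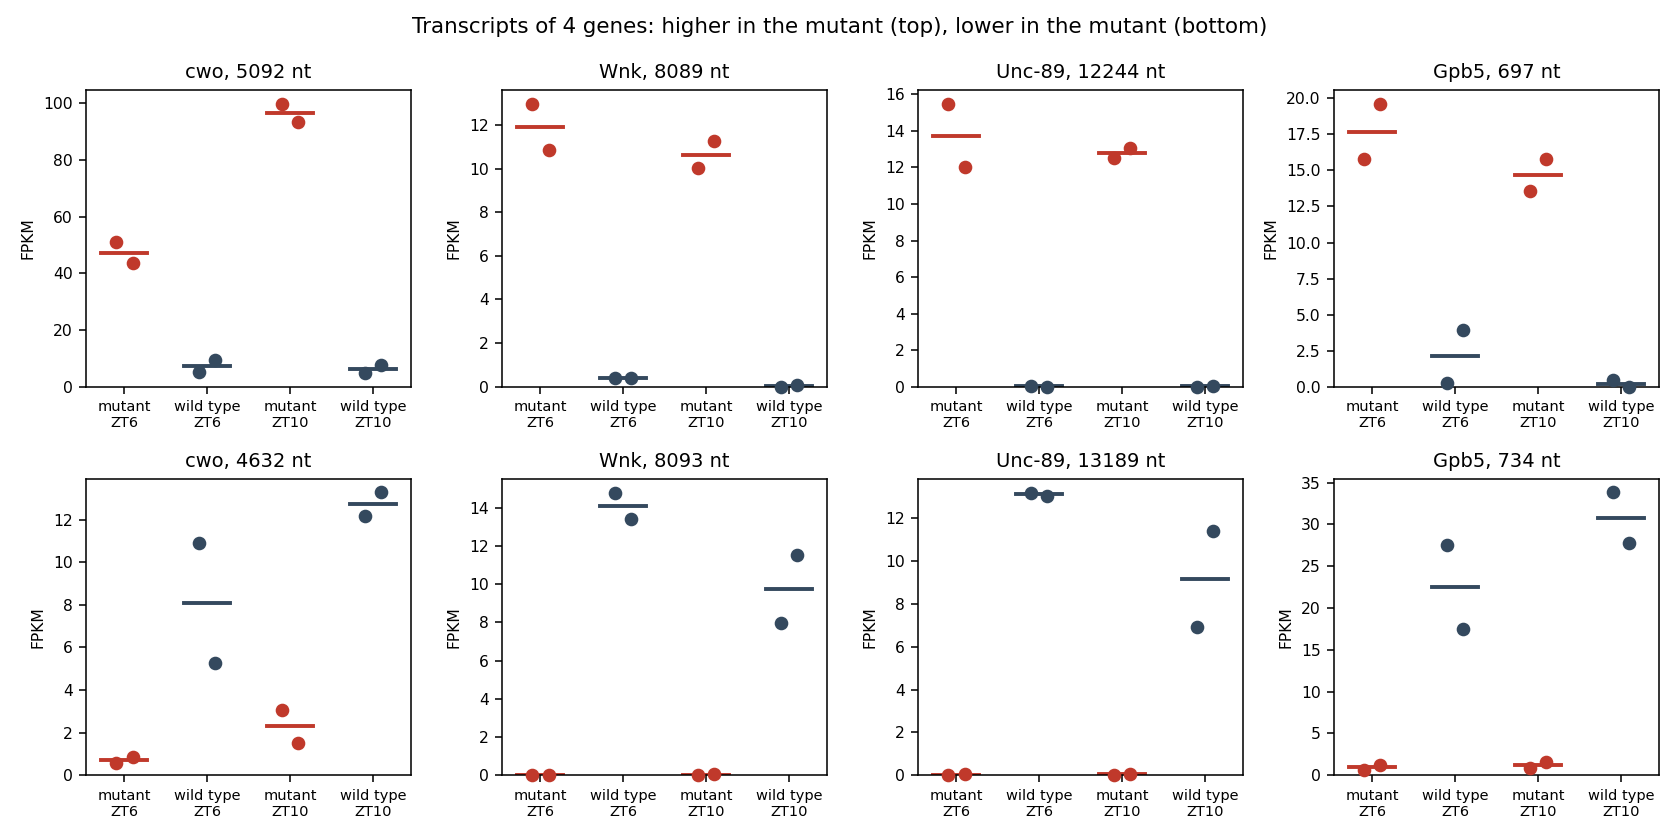
FPKM of transcripts of cwo, Wnk, Unc-89 and Gpb5 in each library (points) with the group mean (bar), mutant in red and wild type in dark grey; titles give transcript lengths. The top row rises and the bottom row falls in the mutant, as with the cwo transcripts of 5092 nt (43.6 to 99.9 FPKM against 4.81 to 9.36 FPKM) and 4632 nt.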

How the data were processed

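Deposited gene values are expected counts by the authors' software, whole numbers in 16727 rows; tools listed without roles in the submitters' processing notes are StringTie, DESeq2 and STAR 2.6.1d, and the build is dm6. In each library, counts of at least 16527 genes equalled transcript coverage times length over 75, within 0.5, so they are estimates that divide reads of overlapping models. The transcript tables hold, per the file headers, coverage per base (an unscaled signal) and FPKM; a separate table deposited by the authors gives gene FPKM. Whether counting used the strand is not given in the sources. Rows whose names had become dates (5) were left out.

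Counts were fitted with edgeR 4.0.16 (filterByExpr, TMM, quasi-likelihood) on 8 libraries with time as a block, or 4 groups for single times; effects at other times came from a 12-group fit of 24 libraries. CPM of single genes are TMM-scaled, and log2 fold changes with SE are edgeR's. Summed CPM of lists and the counts of libraries under 1 CPM over all 24 used plain library totals. Transcripts reaching 1 FPKM in 4 or more libraries went into limma 3.58.1 (trend) on log2(FPKM + 1). All p-values were adjusted over all features tested. DESeq2 1.42.0, other scalings, filters, length offsets, pseudocounts and left-out libraries were alternatives. Calculations used R 4.3.3 and Python 3.11.15 and were tested on simulated data. Named genes were cwo, the core clock, the 12 highest and 12 lowest without overlap between the genotypes, the 3 highest and 3 lowest called of each list and single list members that define it; other names complete a count and were added after their values were seen. The effect, its members and the lists were chosen with earlier results of these data known. Replicates differed beyond sampling noise (chi-square 27.7 to 67.6 per degree of freedom). Reads carry no molecular identifiers.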

Additional observations from a re-analysis of the deposited data

Results flagged for a closer look

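The effect of genotype differed between ZT10 and ZT6 in 5 genes by edgeR's interaction test, and in each the wild-type level was near 0 or low at 1 of the times. Tim9b, which encodes a mitochondrial import protein, had 10.3 and 10.4 CPM at ZT6 and 17.1 and 19.5 CPM at ZT10 in the mutant, against 17.1 and 15.8 CPM at ZT6 and 0 and 0 CPM at ZT10 in wild type; the fitted difference was 11.9 log2 units, a size that depends on the prior count. stnB, of the endocytic stoned locus, had 437, 321, 415 and 376 CPM in the mutant and 279, 288, 1.17 and 0 CPM in wild type (9.21 ± 0.82). Its partner stnA, on the same strand, had 503, 350, 401 and 344 CPM in the mutant and 407, 315, 557 and 554 CPM in wild type. CG43778 had 174, 154, 233 and 235 CPM in the mutant and 161, 168, 17.5 and 18.1 CPM in wild type (3.72 ± 0.16).

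Vps37B, an endosomal sorting gene that overlaps Kat60, had 22.1, 25.6, 28.6 and 28.2 CPM in the mutant and 0.174, 0.374, 34.4 and 27.8 CPM in wild type (-6.54 ± 0.34). CG44194 had 28.7, 37.3, 32.8 and 38.5 CPM in the mutant and 0.232, 0.125, 55.6 and 44.2 CPM in wild type (-7.94 ± 0.38). CG17327, which overlaps CG44194 on the same strand, was at 0 in all 4 mutant libraries and had 37.3, 39.2, 0 and 0 CPM in wild type, so in each of the 8 libraries 1 of these 2 genes was under 1 CPM. Over all 24 libraries CG44194 was under 1 CPM in 12, Vps37B in 5, Tim9b in 3 and stnB in 2. The division of reads between overlapping models was not tested as a cause.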

How the results depend on the processing

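The daytime count of 1267 was 2135 with DESeq2, 383 with counts summed over the times (2 against 2) and 364 in the fit of all 24 libraries, and 1098 to 1280 under the other single changes that kept all 8 libraries and no replicate block; 346 of the 364 and 1254 of the 2135 were among the 1267. With DESeq2 the counts were 312 at ZT6, 1070 at ZT10 and 20 for the interaction. In the fit of all 24 libraries they were 140 at ZT10 and 0 for the interaction. Without a filter the mutant step count was 8. Leaving out 1 library gave 351 to 1466 for the day, 21 to 50 for ZT6, 60 to 1210 for ZT10, 6 to 18 for the interaction, 3 to 11 and 13 to 58 for the mutant and wild-type steps, 0 to 66, 0 to 6 and 0 to 2569 for the differences from other times, 194 to 554 for transcripts and 1.96 to 2.17 for the log2 fold change of cwo. A group left with 1 library was assumed to vary like the rest.

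With the replicate number as a block the day count was 1563 (1601 with length offsets too), and 147 and 328 at ZT6 and ZT10, 5 for the interaction, 5 and 32 for the steps, 0 for each difference from other times and 379 for transcripts; cwo stayed at 2.07, and tim passed. The deviations of same-numbered libraries from their group means correlated by -0.108 to 0.345 over 6 pairs of groups. The labels do not say what a number marks. Of 103 named genes that passed, 46 passed in every alternative and none reversed sign. With 2 libraries a group, 11319605 counts in the shallowest library limit genes of low level.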

Other observations

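The genes that passed were spread over all chromosome arms. Called genes made up 17.1% of the 228 tested within 1 Mb of cwo (17 higher and 22 lower in the mutant) and 10.6% of the 2423 on the rest of arm 3R; changes of at least 2-fold made up 9.65% near cwo, against 2.85% on the rest of 3R. Among the genes named above that lie within this window are MtnA, CG8147, CG12947, CG4757, Ugt35b, ps and tws, the last of which did not pass. The share was 15.5% on 2R, 11.9% on 3L, 10.3% on 2L and 9.35% on X. On chromosome 4, 14 of 92 genes fell (15.2%) and none rose. On X, 112 of 1808 rose and 57 fell, beside 5.92% higher and 5.86% lower among all genes. The risen genes of X were thus near the share of all genes, and fewer fell.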
